A study of Homo sapiens with 4 samples.

Results

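Tubulin genes encode the building blocks of microtubules. In the deposited RNA-seq table of 2 gastric cancer cell lines, the genes were found by a rule on names and gene type: protein-coding genes named TUBA, TUBB or TUBG followed by a digit, and the gene TUBB. This rule found 5 of the 2897 genes of the table, of which 2725 are protein-coding. They are the alpha-tubulin genes TUBA1A, TUBA1B and TUBA1C, the beta-tubulin gene TUBB4B and the gamma-tubulin gene TUBG1. All 5 had a mean of at least 1 FPKM (fragments per kilobase of gene and library size). The table also holds 2 tubulin pseudogenes, TUBBP1 and TUBBP2, which are described separately. The other tubulin genes of the human genome, TUBB among them, were not analysed here.

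AGS-1 and HGC-27 are established human gastric cancer lines, labelled as wild type, and AGS-1 is also labelled AGS. Each was cultured untreated (control) or with isorhamnetin (ISO), a plant flavonoid, at 50 μM for 24 h according to the labels, whereas the text of the study gives a lower dose. The labels name no solvent for the control cells. The study's text speaks of duplicates, whereas the data analysed here hold 1 library for each line and condition, so no replicate enters, and the errors given on single libraries cover counting alone. The study followed the shape of ISO-treated cells by staining tubulin, and the tubulin transcripts of the same lines are described here.

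Alpha- and beta-tubulin pair into a dimer that polymerises into the microtubule, the hollow fibre that forms the mitotic spindle and the tracks of intracellular transport. Human cells carry several genes, called isotypes, for each of them, and cell types differ in which isotypes they use. TUBA1B and TUBA1C are widely used alpha isotypes, TUBA1A is best known from developing neurons, and TUBB4B is a broadly expressed beta isotype that is also prominent in cilia. Gamma-tubulin sits at the centrosome in a ring complex that nucleates new microtubules. Cells also adjust their tubulin mRNAs to the pool of free dimers: the factor TTC5 recognises the first residues of a nascent alpha- or beta-tubulin chain on the ribosome and brings about decay of the mRNA.

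The 3 alpha genes are close neighbours on chromosome 12 (GRCh38). TUBA1B lies at chr12:49127782-49131397 on the minus strand, TUBA1A at chr12:49184686-49189080 on the minus strand and TUBA1C at chr12:49188736-49274600 on the plus strand. TUBA1A and TUBA1C overlap by 345 bases on opposite strands (chr12:49188736-49189080), and whether the counting used strand is not given in the sources used here. TUBB4B lies at chr9:137241287-137243707 and TUBG1 at chr17:42609641-42615238, both on the plus strand.

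The first coding bases of TUBB4B are shown because they encode the residues that TTC5 reads, and those of TUBG1 for comparison. The first 42 bases were read from GRCh38 with the GENCODE 29 annotation, and the capitals mark the first 4 codons. Both stretches lie in exon 1 (chr9:137241361-137241402 and chr17:42609738-42609779), on the plus strand.
TUBB4B: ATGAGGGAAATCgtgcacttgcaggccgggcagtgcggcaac
TUBG1: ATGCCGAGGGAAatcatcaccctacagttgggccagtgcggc

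Over the whole coding sequence, TUBA1A and TUBA1B were identical at 97.2% of aligned bases, TUBA1B and TUBA1C at 97.3% and TUBA1A and TUBA1C at 96.3%, whereas TUBB4B shared 55.9% to 56.8% with the alpha genes. This likeness bears on the measurement, since a read that lies wholly in a shared stretch cannot be given to 1 gene. Of the 50-base windows of the longest coding transcript, 87.1% in TUBA1B also occurred in the transcripts of some other gene, pseudogenes included. The share was 51.8% in TUBA1A, 40.1% in TUBA1C, 30.3% in TUBG1 and 14.6% in TUBB4B. TUBA1B shared 38.6% of its windows with TUBA1A and 37.2% with TUBA1C. Levels of the 3 alpha genes are therefore uncertain in how the counting split shared reads between them, and those of TUBB4B least so by this measure. The measure takes no account of the length or pairing of the reads.

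The 4 libraries held 15235004 (AGS-1 control), 15957590 (AGS-1 ISO), 20199425 (HGC-27 control) and 17072456 (HGC-27 ISO) fragments, recovered from the deposited values, and 78.5%, 64.4%, 61.0% and 60% of them fell in the genes of the table. The 5 tubulin genes took 0.110%, 0.0933%, 0.136% and 0.164% of the fragments in the same order. Epithelial markers (5 of 7 listed were in the table) summed to between 1360 and 2130 FPKM in AGS-1 and to between 3.58 and 4.42 FPKM in HGC-27. The mesenchymal markers VIM and TWIST1 went the other way, with sums of 0.697 to 0.860 FPKM in AGS-1 against 404 to 640 FPKM in HGC-27, and the fibroblast gene COL1A1 likewise (6.83 to 9.71 against 313 to 348 FPKM). HGC-27 thus had little of the epithelial markers measured here, and the line differences in tubulin genes below move together with these lists. Their part in those differences was not tested. Listed markers of gastric mucosa, neurons and leukocytes were not analysed here.

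TUBB4B, the only beta-tubulin gene of the table, was the most abundant tubulin gene per length of the table in 3 of the 4 libraries. In AGS-1 it stood at 235 FPKM (95% counting interval 230 to 241) without ISO and at 169 FPKM (164 to 173) with it. In HGC-27 it stood at 120 FPKM (116 to 123) without ISO and at 194 FPKM (190 to 199) with it. On the deposited scale the highest level was thus in the AGS-1 control and the lowest in the HGC-27 control, and the ISO libraries lay in between. This order rests on the scaling. Upper-quartile scaling divides the AGS-1 control by 1.26 and the HGC-27 ISO library by 0.877. HGC-27 with ISO is then the highest, while the HGC-27 control stays the lowest. The deposited levels rest on 4922 to 7295 fragments and ranked TUBB4B between 106 and 223 of the 2897 genes.

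TUBA1B, per length the most abundant alpha gene in all 4 libraries, differed more between the lines than between treated and untreated cells. AGS-1 had 74.5 FPKM (72.2 to 76.8) untreated and 77.7 FPKM (75.5 to 80.1) treated, against 176 FPKM (173 to 179) untreated and 184 FPKM (181 to 188) treated in HGC-27. Both HGC-27 libraries lay above both AGS-1 libraries. TUBA1C was at 67.0 FPKM (65.1 to 69.0) in the AGS-1 control, 54.2 FPKM (52.5 to 56.0) with ISO, 39.1 FPKM (37.8 to 40.4) in the HGC-27 control and 53.0 FPKM (51.3 to 54.6) with ISO. Its counting intervals in the 2 ISO libraries overlapped. As for TUBB4B, the AGS-1 control was the highest and the HGC-27 control the lowest on the deposited scale. With upper-quartile scaling both ISO libraries lay above the AGS-1 control, and the HGC-27 control stayed the lowest.

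TUBA1A had the widest range of the 5 genes as a fold, though not in FPKM. In AGS-1 it was near the bottom of the table, with 2.87 FPKM (2.45 to 3.34, from 167 fragments) in the control and 2.70 FPKM (2.31 to 3.15, from 165 fragments) with ISO, and only 3.52% and 3.73% of the genes in the table were lower. In HGC-27 it reached 56.0 FPKM (54.4 to 57.7) in the control and 60.7 FPKM (58.8 to 62.6) with ISO. TUBG1, the nucleating gamma-tubulin, was at 11.1 FPKM (10.3 to 11.9) in the AGS-1 control, 13.9 FPKM (13.1 to 14.8) with ISO, 24.0 FPKM (22.9 to 25) in the HGC-27 control and 28.1 FPKM (26.9 to 29.4) with ISO. Both genes were higher in each HGC-27 library than in either AGS-1 library.

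**Figure D1:**
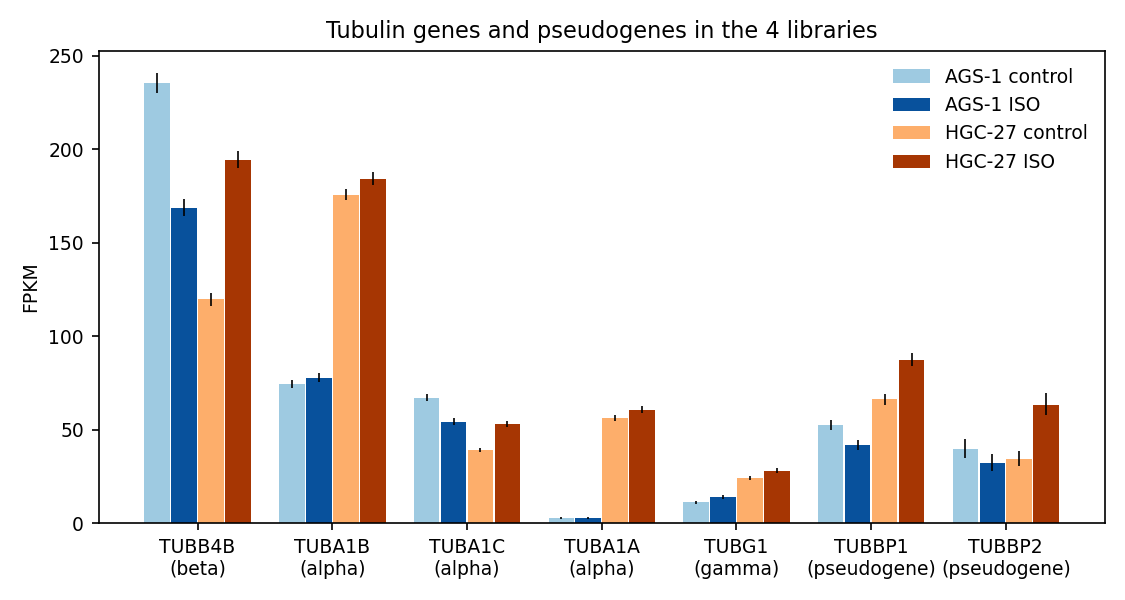
Level of each tubulin gene and pseudogene in FPKM (y axis, linear) in the 4 libraries (colours, 1 library each), with 95% counting intervals as error bars. TUBB4B is lower with ISO in AGS-1 (235 to 169 FPKM) and higher with ISO in HGC-27 (120 to 194 FPKM), while TUBA1A stays under 3 FPKM in AGS-1.

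Levels per length order the genes within a library. In the AGS-1 control the order from high to low was TUBB4B, TUBA1B, TUBA1C, TUBG1 and TUBA1A, and it was the same with ISO. In the HGC-27 control it was TUBA1B, TUBB4B, TUBA1A, TUBA1C and TUBG1, and with ISO TUBB4B stood above TUBA1B. No neighbours in these orders had overlapping counting intervals. The order depends on the gene length used. The table divides by 3574 bases for TUBA1B and 2037 for TUBB4B, whereas their longest coding transcripts in GENCODE 29 have 1627 and 1637 bases. With the longest coding transcript, TUBA1B stood above TUBB4B in HGC-27 with ISO (405 against 242 FPKM), and TUBB4B stayed above TUBA1B in both AGS-1 libraries (293 against 164 FPKM in the control and 210 against 171 FPKM with ISO). TUBG1 then also stood above TUBA1C in the HGC-27 control (64.2 against 58.0 FPKM). Folds of 1 gene between libraries, taken on FPKM with no pseudocount, do not depend on its length.

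The lines differed in which alpha isotypes they used. Of the summed FPKM of the 3 alpha genes, TUBA1A made up 1.99% ± 0.152 (counting SE) in untreated and 2.01% ± 0.155 in treated AGS-1, against 20.7% ± 0.281 in untreated and 20.4% ± 0.290 in treated HGC-27. TUBA1C made up 46.4% ± 0.532 and 40.3% ± 0.525 in AGS-1 (control and ISO) and 14.4% ± 0.229 and 17.8% ± 0.259 in HGC-27. The remainder was TUBA1B, with 51.6% ± 0.535 and 57.7% ± 0.532 in AGS-1 and 64.9% ± 0.328 and 61.8% ± 0.346 in HGC-27. With ISO the share of TUBA1C was thus lower in AGS-1 and higher in HGC-27, that of TUBA1B the reverse, and that of TUBA1A within counting error of the control in both lines. With 1 library per condition these shares carry no test between conditions.

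**Figure D2:**
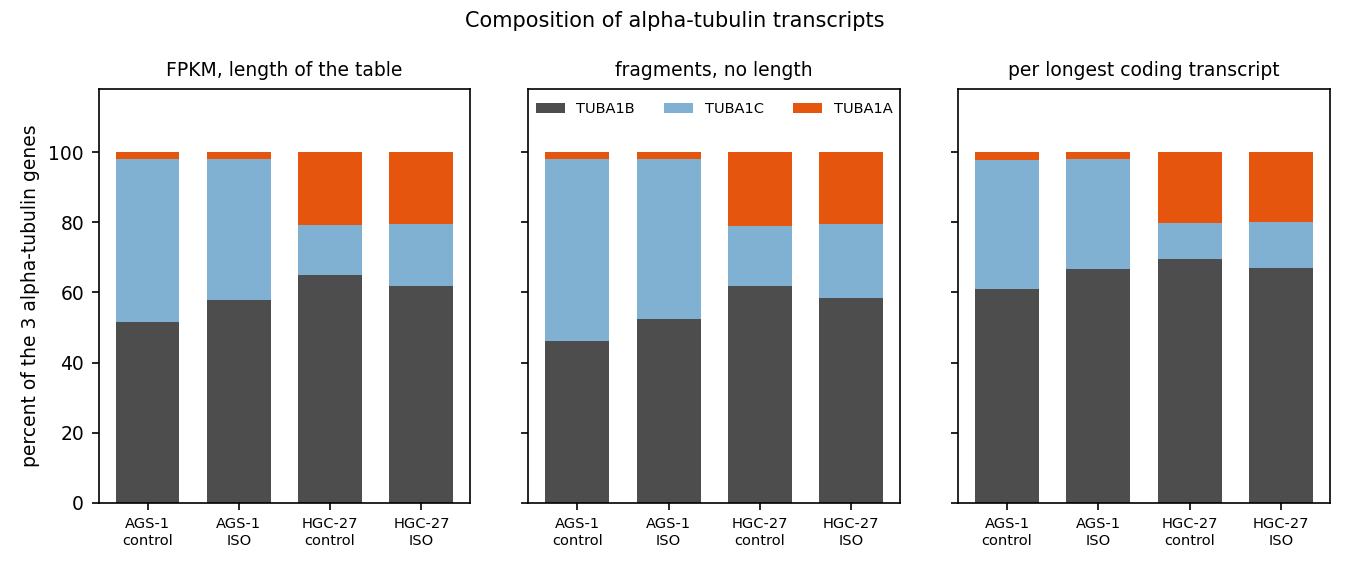
Share of TUBA1B, TUBA1C and TUBA1A in the 3 alpha-tubulin genes (y axis, percent) in the 4 libraries, from FPKM (left), from fragments with no length (middle) and per length of the longest coding transcript (right). In every panel TUBA1A makes up about 2% in AGS-1, against 20% in HGC-27, whereas the split of TUBA1B and TUBA1C moves with the length used.

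Beta against alpha also differed. The 3 alpha genes summed to 144 and 135 FPKM in AGS-1 (control and ISO) and to 271 and 298 FPKM in HGC-27. TUBB4B was 1.63 ± 0.0259 (counting SE) times this sum in untreated and 1.25 ± 0.0218 times in treated AGS-1, against 0.442 ± 0.00702 in untreated and 0.652 ± 0.00923 in treated HGC-27. The ratio moves with the length used. Per length of the longest coding transcript it was 1.09 and 0.818 in AGS-1 (control, ISO) against 0.268 and 0.400 in HGC-27, and from fragments with no length 0.832 and 0.649 against 0.240 and 0.351. On the FPKM of the table, the ratio was 3.69-fold higher in the AGS-1 control than in the HGC-27 control and 1.92-fold higher between the ISO libraries. ISO against control, it stood at 0.769-fold in AGS-1 and 1.48-fold in HGC-27. Since beta isotypes other than TUBB4B were not analysed here, the ratio is one of these genes and not of all beta- to alpha-tubulin. On the FPKM of the table, alpha tubulin was 13.0 ± 0.503 and 9.66 ± 0.329 times TUBG1 in AGS-1 and 11.3 ± 0.260 and 10.6 ± 0.245 times in HGC-27. These ratios too move with the length used, which for TUBG1 is 4316 bases against 1611 in its longest coding transcript.

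The difference between the lines was tested with limma on log2(FPKM + 1) over all 4 libraries, with treatment in the model. Adjusted for 2883 genes by Benjamini-Hochberg, 3 of the 5 tubulin genes were called, all lower in AGS-1. Of all genes tested, 56.9% were called in this comparison, against 60% of the tubulin genes, and 24.7% were called as lower in AGS-1. The balance of directions over all genes rests on the scaling. In AGS-1, 928 genes were called higher and 711 lower as deposited, against 789 and 1064 with upper-quartile scaling. The AGS-1 minus HGC-27 difference was −3.97 ± 0.202 for TUBA1A (log2, SE, limma adjusted p = 2.53e-09), −1.23 ± 0.235 for TUBA1B (limma adjusted p = 0.000655) and −1.01 ± 0.188 for TUBG1 (limma adjusted p = 0.000558). TUBB4B (0.38 ± 0.299, limma adjusted p = 0.297) and TUBA1C (0.40 ± 0.231, limma adjusted p = 0.163) did not pass. The 2 libraries of a line are a control and an ISO culture, and the fit has 1 residual degree of freedom, so its p-values lean on the spread borrowed across genes. The median of the 5 genes was −1.01, and that of all genes tested 0.05.

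Between the control libraries alone, TUBA1A was 19.5-fold higher in HGC-27 (95% counting interval 16.7 to 22.9), and between the ISO libraries 22.4-fold (19.2 to 26.4). TUBA1B was 2.36-fold higher in HGC-27 in the controls and 2.37-fold with ISO, and TUBG1 2.16-fold and 2.02-fold. At least a 2-fold difference on the log2(FPKM + 1) scale was reached by 3 of 5 tubulin genes in the controls, all lower in AGS-1, where 36.7% of all genes reached it and 12.7% were lower. With ISO it was reached by TUBA1A and TUBA1B, where 30.3% of all genes reached it and 13.3% were lower. TUBB4B was 1.97-fold higher in AGS-1 in the controls and 0.868-fold with ISO, and TUBA1C 1.71-fold (1.64 to 1.79) and 1.02-fold (0.979 to 1.07). For these 2 genes the controls differed more between the lines than the ISO libraries did.

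The next question was what ISO did to these transcripts within each line. A gene counted as changed at 2-fold or more in either direction, since no test is possible between single libraries. None of the 5 tubulin genes changed by this rule in either line, against 7.46% of all genes in AGS-1 and 1.48% in HGC-27. A log2 ratio above 0 was found for 2 of the 5 in AGS-1, where 20.4% of all genes had one, and for all 5 in HGC-27, where 35.4% did. In AGS-1 the count was 3 with median-of-ratios and 4 with upper-quartile scaling, and in HGC-27 it stayed at 5 with both. The median of all genes was then −0.02 and 0.10 in AGS-1 and −0.05 and 0.03 in HGC-27. The shares of all genes above 0 given here hold for the deposited scale only. On the deposited scale the median of the 5 ratios was −0.06 (AGS-1) and 0.22 (HGC-27). For all genes it was −0.29 and −0.11, so most genes lay lower with ISO on the deposited scale. After subtracting this median, the AGS-1 and HGC-27 values were −0.19 and 0.80 for TUBB4B, −0.01 and 0.53 for TUBA1C, 0.22 and 0.22 for TUBA1A, 0.35 and 0.17 for TUBA1B and 0.59 and 0.33 for TUBG1. Markers also moved with the treatment: the epithelial sum was 2130 FPKM in untreated and 1360 FPKM in treated AGS-1 (4.42 and 3.58 FPKM in HGC-27), and the sum of VIM and TWIST1 was 640 FPKM in untreated and 404 FPKM in treated HGC-27 (0.697 and 0.860 FPKM in AGS-1). CLDN4 went against its list's sum in AGS-1 (218 and 225 FPKM), as did EPCAM (0.387 and 0.506 FPKM) and CLDN4 (0.927 and 1.72 FPKM) in HGC-27. KRT19 was listed at 0 in HGC-27 and TWIST1 at 0 in AGS-1. Their part in the ISO values was not tested.

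TUBB4B had the lowest log2 ratio of the tubulin genes in AGS-1 and the highest in HGC-27. ISO against control it was −0.48 ± 0.0257 (counting SE) in AGS-1, or 1.39-fold lower, and 0.70 ± 0.0268 in HGC-27, or 1.62-fold higher. In HGC-27 98.5% of the genes had a lower ratio than TUBB4B, and in AGS-1 31.8% had. In AGS-1 the log2 ratio was −0.20 with median-of-ratios scaling and −0.05 with upper-quartile scaling, whereas in HGC-27 the ratio was 0.76 and 0.84. With its counting SE of 0.0257, the AGS-1 value under upper-quartile scaling is not clear of counting error around 0.

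TUBA1C had the same pattern at a smaller size, with −0.30 ± 0.0311 (AGS-1) and 0.43 ± 0.0326 (HGC-27). Its ratio in AGS-1 was −0.03 with median-of-ratios and 0.12 with upper-quartile scaling, so its direction there rests on the scaling. In HGC-27 95.0% of genes had a lower ratio. TUBA1A was −0.06 ± 0.117 in AGS-1, within counting error of 0, and turned to 0.14 and 0.25 with the other 2 scalings. In HGC-27 it was 0.11 ± 0.0312.

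With 0.06 ± 0.0309 (AGS-1) and 0.07 ± 0.0186 (HGC-27), TUBA1B had the log2 ratios nearest to 0 of the 5 genes on the deposited scale. In AGS-1 TUBA1A lay about as near (−0.06 ± 0.117), and nearer with a pseudocount of 5 (−0.03 against 0.06 for TUBA1B). The AGS-1 ratio of TUBA1B was 0.34 with median-of-ratios and 0.49 with upper-quartile scaling, so this too rests on the scaling. TUBG1 was at 0.31 ± 0.0655 in AGS-1 (0.56 and 0.70 with these scalings), above 94.4% of the genes, and at 0.22 ± 0.0431 in HGC-27, above 85.8%. Of the 5 tubulin genes, TUBA1B and TUBG1 were the 2 above 0 in both lines, where 13.0% of all genes were. TUBB4B, TUBA1C and TUBA1A were below 0 in AGS-1 and above 0 in HGC-27, as were 22.2% of all genes.

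**Figure D3:**
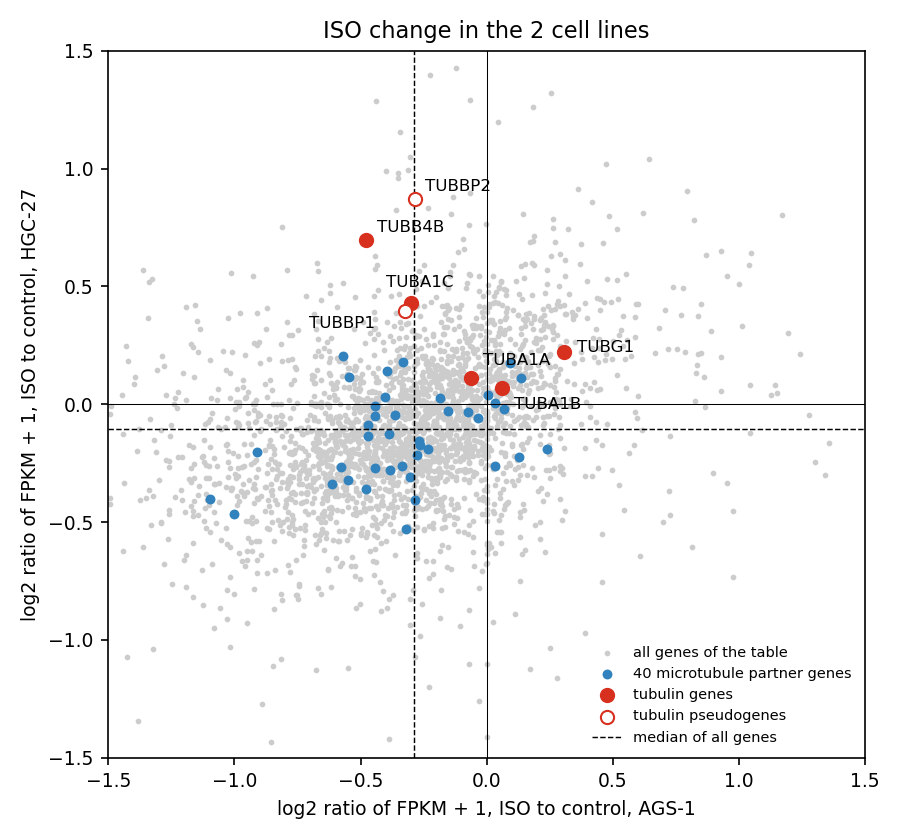
Log2 ratio of FPKM + 1, ISO to control, in AGS-1 (x axis) and HGC-27 (y axis) for all 2897 genes (grey), 40 microtubule partner genes (blue), the 5 tubulin genes (red) and 2 tubulin pseudogenes (open red). Dashed lines give the medians of all genes and 46 genes lie outside the axes. TUBB4B, at −0.48 and 0.70, stands in the upper left with TUBBP2.

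A change shared by the lines was tested with limma with the cell line in the model, which pairs the control and ISO library of each line. None of the 5 tubulin genes was called at an adjusted p of 0.05, against 0.937% of the 2883 genes tested, and none had an unadjusted p under 0.05, against 20% of genes. TUBG1 came nearest, with 0.27 ± 0.188 (log2, SE, limma adjusted p = 0.430, higher in both lines). TUBB4B was at 0.11 ± 0.299 (limma adjusted p = 0.852), the mean of its opposite values in the 2 lines. Whether the lines differ in their response could not be tested, since a model with that term leaves no residual degree of freedom.

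TUBBP1 and TUBBP2 are processed pseudogenes, copies made from a beta-tubulin mRNA. TUBBP1 was listed at 52.4 FPKM in the AGS-1 control, 41.7 FPKM with ISO, 66.2 FPKM in the HGC-27 control and 87.3 FPKM with ISO. TUBBP2, with only 212 to 445 fragments, was at 39.6, 32.3, 34.2 and 63.4 FPKM in the same order. With ISO both had lower values in AGS-1 (log2 ratio −0.32 ± 0.0578 and −0.29 ± 0.131) and higher values in HGC-27 (0.39 ± 0.0418 and 0.87 ± 0.107), the signs that TUBB4B had. In AGS-1 this rests on the scaling, with −0.05 for TUBBP1 and −0.01 for TUBBP2 under median-of-ratios scaling and 0.10 and 0.13 under upper-quartile scaling. Between the lines, TUBBP1 was lower in AGS-1 by limma (−0.69 ± 0.235, limma adjusted p = 0.0239, and 0.0792 with no block) and TUBBP2 did not pass (−0.37 ± 0.258, limma adjusted p = 0.239). Neither shared a 50-base window with the longest coding transcript of any of the 5 tubulin genes. TUBBP1 shared 25% and TUBBP2 14.6% of their windows with the longest transcript of TUBB, so that reads of TUBB could be counted in them. What part such reads had was not tested, and other beta-tubulin genes outside the table were not compared.

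The 3 protein-coding genes outside the family with the profile nearest to TUBB4B were TMEM185B, SBF1 and NES. Likeness was the Euclidean distance between log2(FPKM + 1) profiles over the 4 libraries, each centred on its mean, among 2720 genes. The distances were 0.24, 0.26 and 0.26. TMEM185B, for example, was at 17.7, 14.8, 8.59 and 13.5 FPKM in the AGS-1 control, AGS-1 ISO, HGC-27 control and HGC-27 ISO libraries. NES, which encodes the intermediate filament protein nestin, was at 46.7, 32.9, 24.7 and 31.7 FPKM. Of the tubulin genes TUBA1C was nearest, at 0.23, and the others were at 1.53 (TUBG1), 1.72 (TUBA1B) and 4.38 (TUBA1A). With 4 points, such a match describes these libraries only.

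The bases before the start sites are shown for TUBB4B, TUBA1A and TUBA1B because these genes had different patterns over the libraries. The sequences are the 150 bases upstream of the RefSeq start (GRCh38), on the strand of the gene, with TATATA and with CCAAT on either strand in capitals. They lie at chr9:137241137-137241286, chr12:49189081-49189230 and chr12:49131396-49131545.
TUBB4B: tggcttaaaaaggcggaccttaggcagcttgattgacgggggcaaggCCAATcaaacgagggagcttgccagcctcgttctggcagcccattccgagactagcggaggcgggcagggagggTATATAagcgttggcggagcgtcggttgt
TUBA1A: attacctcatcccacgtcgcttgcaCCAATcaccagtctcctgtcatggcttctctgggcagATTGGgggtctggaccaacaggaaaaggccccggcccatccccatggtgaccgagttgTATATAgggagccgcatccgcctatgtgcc
TUBA1B: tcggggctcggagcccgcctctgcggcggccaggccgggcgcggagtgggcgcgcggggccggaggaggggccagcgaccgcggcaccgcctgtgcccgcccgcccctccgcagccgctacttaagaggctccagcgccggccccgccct

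Over 250 bases upstream, TATATA on either strand was found in 3.73% of 35116 RefSeq promoters and CCAAT on either strand in 32.0%. TUBB4B held TATATA once, 29 bases before the start, and CCAAT at 3 places. TUBA1A held TATATA 30 bases before the start and CCAAT at 2 places, and of the 3 RefSeq starts of TUBA1C the one at 49265082 held TATATA 33 bases before it, whereas those at 49227926 and 49228019 held it 0 times. The letters of both motifs were not found in this window of TUBA1B, and TUBG1 held CCAAT at 1 place. These are matches of letters and describe the sequence only.

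Microtubule partner genes were taken from 11 hand-written lists (109 genes), of which 40 were in the table. With ISO their log2 ratios had medians of −0.33 (AGS-1) and −0.15 (HGC-27), close to the −0.29 and −0.11 of all genes, and 32 and 30 of the 40 were below 0. These counts rest on the scaling: above 0 were 8 (AGS-1) and 10 (HGC-27) of the 40 as deposited, 15 and 17 with median-of-ratios and 26 and 20 with upper-quartile scaling. All genes moved as well, with medians of −0.02 (AGS-1) and −0.05 (HGC-27) with median-of-ratios scaling. With upper-quartile scaling these medians were 0.10 and 0.03. Past 2-fold were PFDN1 and PFDN2 in AGS-1, both lower (6.63% of all genes were), and 0 genes in HGC-27. PFDN1 and PFDN2 are subunits of prefoldin, which delivers newly made tubulin and actin to the chaperonin CCT. In AGS-1, PFDN1 was at 43.6 FPKM in the control and 21.3 FPKM with ISO, and PFDN2 at 155 and 71.6 FPKM. In HGC-27, PFDN1 was at 17.7 and 12.5 FPKM and PFDN2 at 127 and 95.6 FPKM. With median-of-ratios or upper-quartile scaling, neither passed 2-fold.

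The counts by list are on the deposited scale, on which 20.4% of all genes were above 0 in AGS-1 and 35.4% were in HGC-27. All 3 tubulin folding cofactors in the table were below 0 in both lines, with medians of −0.36 (AGS-1) and −0.13 (HGC-27). All 8 CCT subunits were in the table, and 7 were below 0 in each line (median −0.29 in both). Of 4 prefoldin subunits, 3 were below 0 in AGS-1 (median −0.66) and 4 in HGC-27 (−0.43). The gamma-tubulin ring complex was represented by the small subunits MZT1, MZT2A and MZT2B, all below 0 in both lines (median −0.58 and −0.27), while TUBG1, which the complex contains, was above 0 in both. The 7 genes of the kinesin list, motors that walk along microtubules and a light chain that binds cargo, were at a median of 0.03 and −0.02. Of 6 microtubule-associated proteins, 6 were below 0 in AGS-1 (median −0.36) and 4 in HGC-27 (−0.15), and of 5 dynein and dynactin genes, 4 (−0.23) and 3 (−0.06). The destabilisers and severing enzymes had 2 genes in the table (medians −0.15 and 0.05). The tubulin-modifying enzymes (TTLL12, −0.40 and 0.03) and the autoregulation list (CNOT11, −0.44 and −0.05) had 1 gene each, and the list of other tubulin superfamily genes had 0. For the shared ISO change, limma called 0 of the 40 genes, against 0.937% of all genes, and 5 had an unadjusted p under 0.05, all lower with ISO, against 20% of all genes. PFDN1 was at −0.73 ± 0.200 (limma adjusted p = 0.103) and was the only one of the 40 called under an alternative setting, a filter at a mean of 10 FPKM (limma adjusted p = 0.0362).

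**Figure D4:**
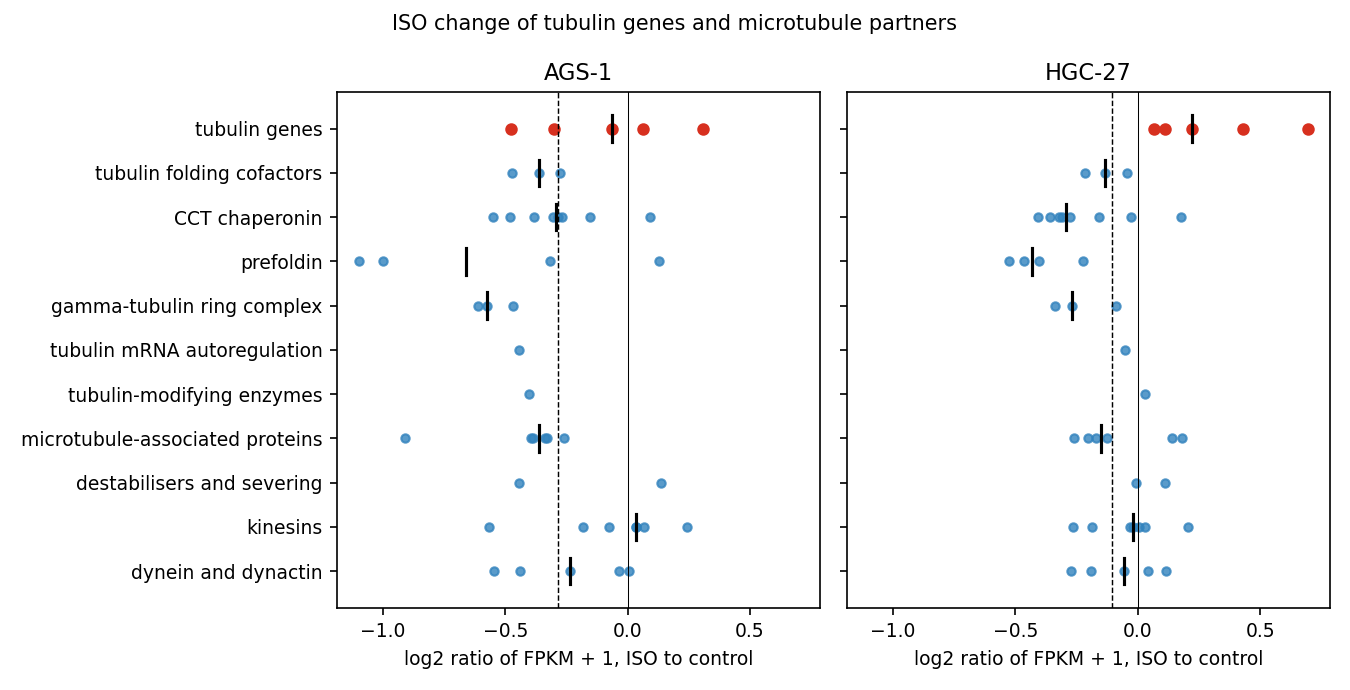
Log2 ratio of FPKM + 1, ISO to control, of the tubulin genes (red) and of microtubule partner genes by list (blue, 1 point per gene) in AGS-1 (left) and HGC-27 (right). Short bars give list medians and dashed lines the median of all genes. The 5 tubulin genes sit above 0 in HGC-27, and the prefoldin genes PFDN2 and PFDN1 hold the lowest values in AGS-1.

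Between the lines, 17 of the 40 partner genes were called by limma, 4 higher and 13 lower in AGS-1, beside 56.9% of all genes, 32.2% higher and 24.7% lower. The count was 26 with upper-quartile scaling, 23 with median-of-ratios scaling and 12 with no block. The calls over all 2883 genes moved as well, from 1639 to 1853, 1773 and 1182 in the same order. With upper-quartile scaling 789 of all genes were higher and 1064 lower in AGS-1. Among the motors, DYNLT3, a light chain of dynein, was at 31.3 and 21.1 FPKM in AGS-1 and at 3.14 and 3.49 FPKM in HGC-27 (2.63 ± 0.253, limma adjusted p = 1.49e-06). ACTR1A, the actin-related filament protein of dynactin, was at 18.4 and 18.5 against 62.3 and 64.1 FPKM (−1.73 ± 0.193, limma adjusted p = 6.71e-06). The mitotic kinesins KIF20A (−1.28 ± 0.197) and KIF4A (−1.04 ± 0.187) were lower in AGS-1. Among genes of tubulin folding, the CCT subunits CCT7 (−1.03 ± 0.236) and CCT5 (−0.90 ± 0.214), the prefoldin subunit VBP1 (−1.06 ± 0.192) and the cofactor TBCB (−0.53 ± 0.197) were lower in AGS-1, the direction of TUBA1B, TUBA1A and TUBG1. Called lower were 3 of 8 CCT subunits, 1 of 4 prefoldin subunits and 1 of 3 cofactors. The others of these lists were not called and went both ways, save PFDN1 (0.99 ± 0.200), which was called higher in AGS-1. MAPRE1 (0.77 ± 0.216), which tracks growing microtubule ends, and CNOT11 (0.72 ± 0.196), a non-catalytic subunit of the CCR4-NOT deadenylase complex, were also higher there. MZT2B (−0.56 ± 0.193), MZT1 (−0.53 ± 0.201) and TTLL12 (−0.96 ± 0.201), of the tubulin tyrosine ligase-like family, were lower.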

How the data were processed

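RNA-seq was done on 4 libraries, 1 each of control and ISO-treated AGS-1 and HGC-27 cells (mRNA kit, Illumina NextSeq). The authors deposited FPKM for 2897 genes with gene lengths. The submitters' processing notes name CASAVA 1.8, HISAT2 and GRCh38 (hg38), and the counting tool, the annotation and how the genes were selected are not given in the sources used here. Multiplied by gene length, 100% of the values gave whole fragments (tolerance 0.02). The recovered fragments served for depth, shares of fragments, ratios with no length and 95% counting intervals, which leave out variation between cultures, and for no test.

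Ratios used log2(FPKM + 1). That scale understates the change of low genes, while folds were taken on FPKM itself. Within a line no test was made, and a log2 ratio of 1 counted as changed. limma 3.58.1 (eBayes with a trend, R 4.3.3) was fitted where a gene averaged 1 FPKM or more, with line and treatment in the model, Benjamini-Hochberg adjustment and a threshold of 0.05, and was tested on simulated data. The line pairs control and ISO, which share a cell line. Sequences came from GRCh38 with GENCODE 29, and upstream sequences from RefSeq, where all 5 genes matched. Their coding transcripts were the longest annotated. Python 3.11.15 was used for the rest.

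Named genes were all tubulin genes and pseudogenes, partner genes changed 2-fold or called for ISO, the 2 largest called line differences of each list, and the 3 genes most like TUBB4B. MZT2A and the cell type markers fall outside this rule, and MZT2A, KRT19, EPCAM and CLDN4 were named after their values were seen. The members and lists were chosen with earlier results of these data known. Alternatives were pseudocounts of 0.1 and 5, no filter or a mean of 10 FPKM, median-of-ratios and upper-quartile scaling, no trend, no block and other lengths. The coding sequence of the alpha genes is not reported here.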

Additional observations from a re-analysis of the deposited data

Results flagged for a closer look

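TUBB4B, TUBA1C and TUBA1A and both pseudogenes had a log2 ratio below 0 with ISO in AGS-1 and above 0 in HGC-27, so that the single comparison of each line pointed the other way. The HGC-27 minus AGS-1 difference of log2 ratios was 1.17 ± 0.0371 (counting SE) for TUBB4B, 0.73 ± 0.0450 for TUBA1C and 0.18 ± 0.121 for TUBA1A. For TUBBP1 it was 0.72 ± 0.0713 and for TUBBP2 1.16 ± 0.169. The median difference of all genes was 0.20, which TUBA1A did not reach, and 96.9% of genes had a smaller difference than TUBB4B. These differences were not tested, since 1 library per line and condition leaves no residual degree of freedom for them. In AGS-1 the signs of 4 of these genes turned with another scaling. TUBB4B kept its sign, but with upper-quartile scaling its AGS-1 ratio was −0.0483 ± 0.0257 (counting SE). That value is not clear of counting error around 0, so the lower level of TUBB4B in AGS-1 also rests on the scaling. With upper-quartile scaling the differences were 0.89 (TUBB4B), 0.45 (TUBA1C), 0.010 (TUBA1A), 0.44 (TUBBP1) and 0.88 (TUBBP2).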

How the results depend on the processing

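The median log2 ratio of all genes in AGS-1 was −0.29 as deposited, −0.02 with median-of-ratios and 0.10 with upper-quartile scaling, and in HGC-27 −0.11, −0.05 and 0.03. In AGS-1 the ratio of TUBA1A turned to 0.14 and 0.25 with these scalings, and with upper-quartile scaling that of TUBA1C turned to 0.12, of TUBBP1 to 0.10 and of TUBBP2 to 0.13. Partner genes past 2-fold in AGS-1 numbered 2 as deposited, 1 with a pseudocount of 5 and 0 with either scaling. The calls of tubulin genes numbered 0 for ISO and 3 between lines in every setting run, also with no replicate block (0 and 3), although the pairing by cell line moved the ISO calls over all genes from 0 to 27. Those calls numbered 107 and 12 with pseudocounts of 0.1 and 5, 6 with no filter, 104 with a mean of 10 FPKM, 0 with either scaling (511 and 505 at an unadjusted p under 0.05) and 6 with no trend. The line difference of TUBBP1 lost its call without the block (limma adjusted p = 0.0792). The share of TUBA1B in alpha-tubulin was 46.2%, 52.4%, 61.8% and 58.5% (AGS-1 control and ISO, HGC-27 control and ISO) from fragments, and 60.9%, 66.5%, 69.4% and 67.0% per length of the longest coding transcript, a setting chosen after seeing the data. Leaving out a library was not run as a test, since it leaves no residual degree of freedom.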
